A study of Mus musculus with 10 samples.

Results

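The MHC class I and II genes described here were 10 genes of antigen presentation, taken by name from a table of 54532 genes measured in the lungs of 10 mouse pups. They were the class II chain genes H2-Aa, H2-Ab1 and H2-Eb1, the invariant chain gene Cd74, the peptide exchange genes H2-DMa and H2-DMb1, the class II transactivator gene Ciita, the class I heavy chain genes H2-K1 and H2-D1, and B2m, which encodes the class I light chain. All 10 were in the table, and all 10 passed a filter of a mean of at least 0.5 FPKM over the lungs, which 15388 genes passed. FPKM divides the fragments counted on a gene by the gene's length in kilobases and by library size. This serves comparison between genes and, as far as that scaling holds, between lungs.

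The study asked what increased pulmonary blood flow (IncPBF) does to the developing lung. All pups were wild-type, and of C57/BL6 stock and either sex according to the methods. All were anesthetized with isoflurane and opened at the abdominal midline on postnatal day 7 (P7). In the IncPBF group (5 lungs) a needle was passed from the abdominal aorta into the inferior vena cava, which leaves a fistula between the vessels, and in the sham group (5 lungs) this puncture was omitted. The lungs were taken for bulk RNA-sequencing at P14, without sorting of cells. The labels give no litter or date of surgery, and p-values measure only the spread between these lungs. Fewer cells of a type and less RNA per cell cannot be told apart in such samples.

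MHC class I molecules stand on nearly all nucleated cells and show peptides made in the cytosol to CD8 T cells. They consist of a heavy chain and B2m and are loaded in the endoplasmic reticulum with peptides that the proteasome cuts and the transporter TAP brings in. MHC class II molecules show peptides from endocytosed material to CD4 T cells and are made mainly by dendritic cells, B cells and macrophages, while alveolar type 2 cells of the lung also carry them. The invariant chain occupies their groove until lysosomal proteases cut it, and H2-DM then exchanges the last fragment for other peptides. Ciita governs transcription of the class II genes, Nlrc5 plays a similar part for class I, and interferon gamma raises both.

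The lungs held 16103423 to 20318525 fragments on genes. The genes described here drew from 197 fragments for Ciita in its lowest lung to 14045 for Cd74 in its highest. They carry no molecular identifiers, so their number bounds counting error alone. The tissue label held in all 10 lungs for Sftpc, the surfactant protein gene of alveolar type 2 cells, at 9583 to 14074 FPKM. Scgb1a1, the club cell secretory gene, was at 128 FPKM in sham lung 5 against 4802 to 11743 FPKM in the other lungs, so that lung stood apart. IncPBF lung 1 stood apart as well. Xist, the RNA of the inactive X chromosome, was at 0.0144 FPKM there and at no more than 0.07697 FPKM in the sham lungs, but at 52.4 to 66.5 FPKM in IncPBF lungs 2 to 5, and Ddx3y of the Y chromosome was at 18.6 FPKM in IncPBF lung 1, at 21.8 to 24.6 FPKM in the sham lungs and at no more than 0.00926 FPKM in IncPBF lungs 2 to 5. Sex-linked expression and group cannot be told apart in the other 9 lungs, and results that rest on IncPBF lung 1 are given with and without it.

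In the mouse genome, 7 of the 10 genes lie in the H2 complex on chromosome 17. The table places H2-DMa at chr17:34135182-34139101 on the plus strand and H2-DMb1 at chr17:34153072-34160230 on the plus strand, beside the class II chain genes. H2-Ab1 lies at chr17:34263209-34269418 on the plus strand, H2-Aa at chr17:34282744-34287827 on the minus strand and H2-Eb1 at chr17:34305877-34316199 on the plus strand. The class I genes flank this stretch, with H2-K1 at chr17:33996017-34000333 on the minus strand and H2-D1 at chr17:35262730-35267499 on the plus strand. Outside the complex, Ciita lies at chr16:10480059-10528418 on the plus strand and B2m at chr2:122147686-122153083 on the plus strand. The coordinates are those of the table, whose genes had the positions of GENCODE M21 on GRCm38 for 98.3% of the shared genes and for 4 of these 10, the ends of the other 6 differing. C57BL/6 mice lack a working gene for the alpha chain of the second class II molecule, I-E, and the remnant H2-Ea-ps was at 0 FPKM in 9 lungs and at 0.0774 FPKM in sham lung 2.

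Promoters are shown because class I and II genes are known for shared short elements upstream of their starts, and because the 2 classes varied differently between the lungs. RefSeq promoters on GRCm38.p6 were found for 7 of the 10 genes, and 250 bases upstream were searched on both strands. The letters searched were CTGATTGG (the Y box bound by NF-Y) and its core ATTGG, the X1 box core GNNACNGAT, the X2 box TGNGTCA, GAAANNGAA (an interferon-stimulated element) and GGGGATTCC (the kappaB site of class I enhancer A). Of 32851 promoters, 3.83% held the Y box, 33.8% its core, 6.53% the X1 core, 13.0% the X2 box, 7.13% the interferon-stimulated element and 0.213% the kappaB site. The stretches below run 5′ to 3′ in the direction of the gene from 200 to 11 bases before the start, with every match in capitals; a core inside a Y box counts under both, and a match says nothing about binding in these lungs. The H2-Eb1 stretch overlaps an exon of the antisense gene Gm20513, and whether fragments were counted by strand is not given in the sources used here.
H2-Aa, chr17:34287834-34288023, minus strand: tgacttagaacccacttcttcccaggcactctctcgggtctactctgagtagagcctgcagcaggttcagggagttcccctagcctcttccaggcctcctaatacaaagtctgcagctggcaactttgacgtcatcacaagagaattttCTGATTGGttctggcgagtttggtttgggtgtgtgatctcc
H2-Eb1, chr17:34305667-34305856, plus strand: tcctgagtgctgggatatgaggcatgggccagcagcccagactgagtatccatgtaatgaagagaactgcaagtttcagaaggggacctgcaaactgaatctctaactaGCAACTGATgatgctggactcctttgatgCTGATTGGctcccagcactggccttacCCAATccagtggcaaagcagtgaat
H2-K1, chr17:34000358-34000547, minus strand: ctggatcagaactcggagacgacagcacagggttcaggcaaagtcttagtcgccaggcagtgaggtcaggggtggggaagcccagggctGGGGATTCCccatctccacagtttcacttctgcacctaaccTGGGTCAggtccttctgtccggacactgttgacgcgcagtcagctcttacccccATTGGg
B2m, chr2:122147487-122147676, plus strand: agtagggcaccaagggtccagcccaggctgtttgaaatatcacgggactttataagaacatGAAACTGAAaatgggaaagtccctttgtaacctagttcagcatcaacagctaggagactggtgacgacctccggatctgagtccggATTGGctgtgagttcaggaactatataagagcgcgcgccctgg
H2-Q6, chr17:35424650-35424839, plus strand: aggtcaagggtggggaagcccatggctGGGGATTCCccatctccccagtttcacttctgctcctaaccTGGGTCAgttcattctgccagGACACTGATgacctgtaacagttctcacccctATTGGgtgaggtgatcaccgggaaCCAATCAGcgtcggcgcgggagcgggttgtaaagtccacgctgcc
The class II promoters of H2-Aa and H2-Eb1 carried the Y box 51 and 62 bases before the start, counted to the first base of the match, and H2-Eb1 also the X1 core at 91 bases. H2-K1 carried the kappaB site at 111 bases, letters matching the X2 box at 70 bases and the Y box core at 16 bases. B2m carried the interferon-stimulated element at 139 bases and the Y box core at 53 bases. Only matches to the letters searched were counted. Variant forms of these elements would be missed, so a stretch without a match may still hold one. The H2-D1 stretch lies in an annotated exon and is not printed. H2-D1 held the kappaB site at 171 bases, letters matching the X2 box at 130 bases, the X1 core at 109 bases and the Y box in reverse at 53 bases. H2-Q6, a class I gene outside the 10 that varied strongly between lungs, held the same 4 matches in the same order. In both, the X2 letters lay farther from the start than the X1 core, and 13.0% of all promoters hold these letters. Whether they are the X2 box was not tested. H2-DMb1 held the X1 core at 94 bases and the Y box core at 61 bases. The second of the H2-DMa promoters held letters matching the X2 box at 86 bases.

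Cd74 and B2m were the most abundant of the 10 genes in both groups, at 399.7 ± 59.5 FPKM (SD, n = 5) in the IncPBF group and 472 ± 54.2 FPKM (SD, n = 5) in the sham group for Cd74. In the IncPBF group the order of mean levels was Cd74, B2m, H2-D1, H2-K1, H2-Ab1, H2-Eb1, H2-Aa, H2-DMb1, H2-DMa and Ciita. The sham group had the same order, except that H2-Eb1 stood above H2-Ab1. Neighbours in the order that did not overlap in either group were B2m above H2-D1, H2-Aa above H2-DMb1, and H2-DMa above Ciita. H2-D1 stood clear of H2-K1 in the sham lungs, and the ranges of the other neighbours overlapped. The class II chains thus lay at one level near that of H2-K1, the genes of H2-DM clearly below them, and Ciita lowest.

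None of the 10 genes differed between the groups past a Benjamini-Hochberg adjusted p of 0.05 over the 15388 genes tested (limma on log2(FPKM + 0.1)), and for none were all lungs of one group above all lungs of the other. In the same fit 32.3% of all genes passed this threshold, 16.2% lower and 16.1% higher in the IncPBF group, and the groups did not overlap for 23.2%. Only H2-Eb1 had an unadjusted p under 0.05 in that fit, and the count was also 0 with limma-voom on recovered fragments and with the exact permutation test of each gene. The log2 fold changes (IncPBF minus sham) ran from -0.25 for H2-Eb1 to 0.29 for Ciita, with 8 below 0 and 2 above. Their median was -0.12, beside 0.0145 over all genes tested. With every lung scaled to an equal total, the median over all genes was 0.0922 and H2-Eb1 stood at -0.17, so small differences depend on the scaling. The count of 0 past the threshold was not stable to leaving out single lungs, as given for each gene below.

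**Figure D1:**
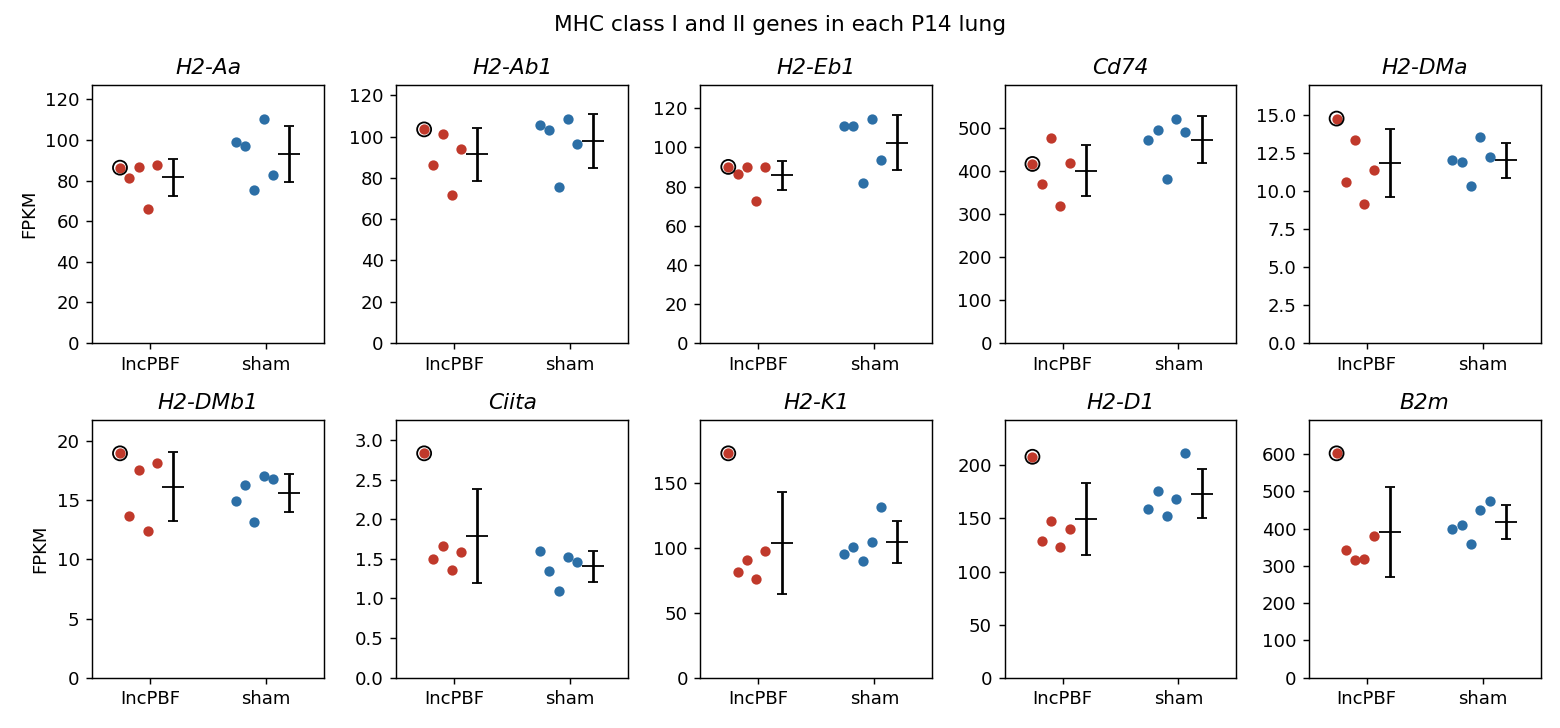
Levels of the 10 MHC class I and II genes in FPKM (y axis, from 0) in each P14 lung, with 5 IncPBF lungs in red, 5 sham lungs in blue, and bars for the mean and SD of each group. IncPBF lung 1 is ringed: it was the highest of all 10 lungs for 5 genes, among them H2-K1 at 173 FPKM and B2m at 602 FPKM, while the groups overlapped for every gene.

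H2-Aa and H2-Ab1 encode the alpha and beta chains of I-A, the class II molecule of these mice. H2-Aa was at 86.3, 81.5, 86.7, 65.96 and 87.7 FPKM in IncPBF lungs 1 to 5 and 98.8, 97.03, 75.4, 111 and 82.9 FPKM in sham lungs 1 to 5. The groups overlapped, with sham lung 4 highest and IncPBF lung 4 lowest. Between the groups, H2-Aa had a log2 fold change of -0.18 with a 95% interval of -0.43 to 0.0634 (limma, adjusted p = 0.239, exact permutation p = 0.175). H2-Ab1 was at 103, 86.1, 101, 71.7 and 94.03 FPKM in IncPBF lungs 1 to 5 and 106, 103, 75.7, 109 and 96.5 FPKM in sham lungs 1 to 5. IncPBF lung 4 and sham lung 3 were low beside the rest of their groups, which both spanned similar levels. The log2 fold change of H2-Ab1 was -0.10 with a 95% interval of -0.36 to 0.16 (limma, adjusted p = 0.557, exact permutation p = 0.437).

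H2-Eb1 encodes the beta chain of I-E, which has no partner chain in this strain. It was at 90.04, 86.5, 89.7, 72.8 and 90.1 FPKM in IncPBF lungs 1 to 5 and 111, 111, 81.8, 115 and 93.7 FPKM in sham lungs 1 to 5. Of the 5 sham lungs, 4 lay above every IncPBF lung, but sham lung 3 lay below all IncPBF lungs except lung 4. The fitted difference of H2-Eb1 was, on the log2 scale, -0.25 with a 95% interval of -0.47 to -0.0269 (limma, adjusted p = 0.0818, exact permutation p = 0.0873). Without sham lung 3 it was -0.33 (limma adjusted p = 0.0137) and passed the threshold.

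Cd74, at chr18:60803848-60812646 on the plus strand, encodes the invariant chain, the chaperone of newly made class II molecules. It was at 416, 369.8, 477, 318 and 419 FPKM in IncPBF lungs 1 to 5 and 471, 496, 380.3, 521 and 491 FPKM in sham lungs 1 to 5. IncPBF lung 4 was lowest and sham lung 4 highest, and IncPBF lung 3 lay above 2 of the sham lungs. The log2 fold change of Cd74 was -0.24 with a 95% interval of -0.50 to 0.0157 (limma, adjusted p = 0.138, exact permutation p = 0.0873). As for H2-Eb1, leaving out sham lung 3 moved it past the threshold, at -0.32 (limma adjusted p = 0.0446).

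H2-DMa and H2-DMb1 encode the chains of H2-DM, which catalyses peptide exchange on class II molecules. H2-DMa was at 14.8, 10.6, 13.4, 9.15 and 11.4 FPKM in IncPBF lungs 1 to 5 and 12.1, 11.9, 10.3, 13.6 and 12.2 FPKM in sham lungs 1 to 5. IncPBF lung 1 was the highest and IncPBF lung 4 the lowest of all 10 lungs, so the sham range lay within the IncPBF range. This gave H2-DMa a log2 fold change of -0.0326 with a 95% interval of -0.30 to 0.23 (limma, adjusted p = 0.864, exact permutation p = 0.873). H2-DMb1 was at 18.98, 13.7, 17.6, 12.4 and 18.1 FPKM in IncPBF lungs 1 to 5 and 14.97, 16.3, 13.2, 17.1 and 16.8 FPKM in sham lungs 1 to 5. Its highest and lowest lungs were the same as those of H2-DMa, and the log2 fold change was 0.0312 with a 95% interval of -0.24 to 0.30 (limma, adjusted p = 0.872, exact permutation p = 0.7302). Of the 50-base windows of the H2-DMb1 transcript, 27.2% occurred in that of its neighbour H2-DMb2 as well, so fragments may have been split between these genes, and H2-DMb2 was at 3.87 ± 0.345 FPKM (SD, n = 5) in the IncPBF group and 4.19 ± 0.983 FPKM (SD, n = 5) in the sham group.

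Ciita encodes the coactivator on which class II transcription depends. It was at 2.83, 1.49, 1.66, 1.36 and 1.59 FPKM in IncPBF lungs 1 to 5 and 1.601, 1.34, 1.098, 1.52 and 1.46 FPKM in sham lungs 1 to 5. IncPBF lung 1 stood clear of the other 9 lungs, which spanned 1.098 to 1.66 FPKM. The log2 fold change of Ciita was 0.29 with a 95% interval of -0.11 to 0.69 (limma, adjusted p = 0.254, exact permutation p = 0.167). Leaving out IncPBF lung 1 gave 0.12 with a 95% interval of -0.17 to 0.41 (limma adjusted p = 0.527). Of the 10 genes, Ciita was the one that was at least 1.5 times as high in IncPBF lung 1 as in any other lung.

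H2-K1 and H2-D1 encode the classical class I heavy chains of these mice. H2-K1 was at 173, 81.4, 90.6, 75.9 and 97.2 FPKM in IncPBF lungs 1 to 5 and 95.4, 100.2, 89.9, 104 and 132 FPKM in sham lungs 1 to 5. IncPBF lung 1 was highest, sham lung 5 came next, and 2 of the other 4 IncPBF lungs lay below all sham lungs. With all lungs, H2-K1 had a log2 fold change of -0.0653 with a 95% interval of -0.50 to 0.37 (limma, adjusted p = 0.831, exact permutation p = 0.984). It was -0.27 with a 95% interval of -0.52 to -0.0125 (limma adjusted p = 0.107) when IncPBF lung 1 was left out. H2-D1 was at 208, 129, 148, 124 and 140.4 FPKM in IncPBF lungs 1 to 5 and 159, 176, 152, 168 and 211 FPKM in sham lungs 1 to 5. IncPBF lungs 2 to 5 all lay below the lowest sham lung, whereas IncPBF lung 1 was second only to sham lung 5. With all lungs, H2-D1 had a log2 fold change of -0.23 with a 95% interval of -0.53 to 0.0753 (limma, adjusted p = 0.233, exact permutation p = 0.2302). When IncPBF lung 1 was left out it was -0.35 with a 95% interval of -0.57 to -0.13 (limma adjusted p = 0.0248), which passed the threshold. Of the 50-base windows of the transcripts, 8.11% for H2-K1 and 14.3% for H2-D1 occurred in other genes, the most with H2-D1 for H2-K1 (6.52%) and with H2-Q1 for H2-D1 (7.40%), so part of their fragments may belong to relatives.

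B2m encodes the light chain that all classical class I molecules need to reach the cell surface. It was at 602, 343, 317, 317 and 379 FPKM in IncPBF lungs 1 to 5 and 399.8, 409.9, 358, 450.3 and 475 FPKM in sham lungs 1 to 5. IncPBF lung 1 was the highest of all lungs, and IncPBF lungs 2, 3 and 4 lay below the lowest sham lung. The log2 fold change of B2m was -0.13 with a 95% interval of -0.50 to 0.23 (limma, adjusted p = 0.569, exact permutation p = 0.6905). The fit that leaves out IncPBF lung 1 gave -0.30 with a 95% interval of -0.52 to -0.0819 (limma adjusted p = 0.04501) and B2m passed the threshold. No 50-base window of the B2m transcript occurred in another gene.

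In the fit without IncPBF lung 1, then, 2 of the 10 genes (H2-D1 and B2m) were lower in the IncPBF group past the threshold and none was higher, where 27.9% of all genes passed it and 13.9% did so as lower. The median log2 fold change of the 10 genes was -0.23 in that fit, and of the 3 class I genes -0.30, beside 0.01396 over all genes. Without both IncPBF lung 1 and sham lung 5, a choice made after the data were seen, H2-D1 passed at -0.28 (limma adjusted p = 0.0321) and B2m did not at -0.25 (limma adjusted p = 0.0887). With Xist added to the model as a log2 covariate, where 4.82% of all genes passed, Ciita at 0.97 (limma adjusted p = 0.0238) and H2-K1 at 0.74 (limma adjusted p = 0.0388) were higher in the IncPBF group. The group term of that fit rests on IncPBF lung 1, the one IncPBF lung with the Xist level of the sham lungs.

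**Figure D2:**
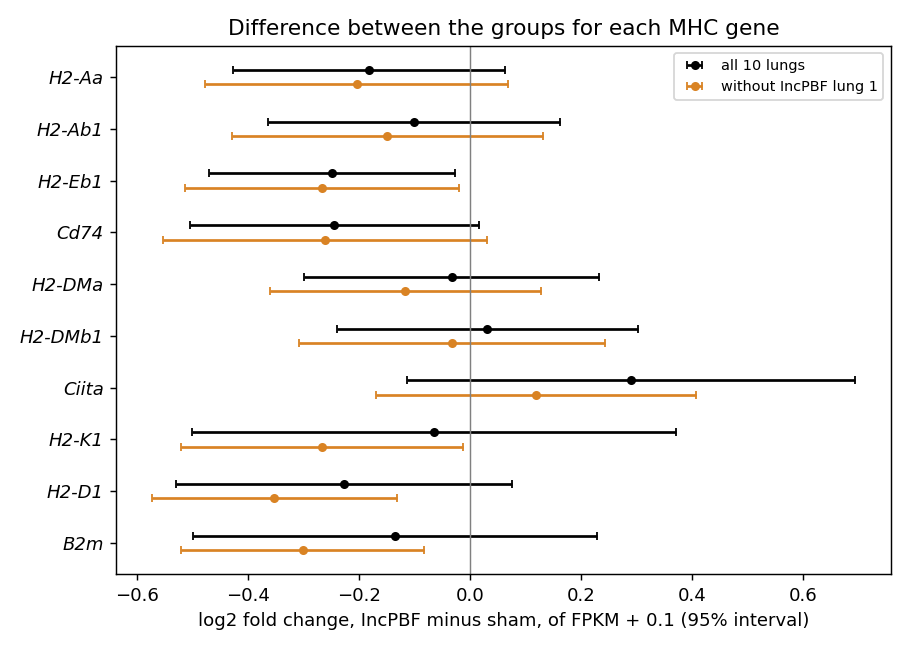
Log2 fold change of FPKM + 0.1, IncPBF minus sham (x axis), for each of the 10 genes (y axis), with limma's 95% interval from all 10 lungs (black) and without IncPBF lung 1 (orange). The 3 class I genes shift to the left without that lung, H2-K1 from -0.0653 to -0.27, while H2-Aa, H2-Eb1 and Cd74 move by little.

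With IncPBF lung 1 set against the median of the other 9 lungs, the class I genes were 1.81 times (H2-K1), 1.59 times (B2m) and 1.37 times (H2-D1) as high there. Ciita was 1.895 times as high. For the class II chains and Cd74 the same ratio ran only from 0.882 for Cd74 to 1.07 for H2-Ab1, and it was 1.24 for H2-DMa and 1.16 for H2-DMb1. IncPBF lung 1 was the highest of all 10 lungs for 5 of the 10 genes and for 7.19% of all genes tested. IncPBF lung 4 was the lowest for 8 of the 10 genes, and for 16.1% of all genes. Sham lung 4 was the highest for the 4 class II genes H2-Aa, H2-Ab1, H2-Eb1 and Cd74.

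Other genes of class I presentation stood out in IncPBF lung 1 in the same way. Nlrc5, the class I transactivator gene, was at 4.099, 0.3895, 0.446, 0.307 and 0.4196 FPKM in IncPBF lungs 1 to 5 and 0.649, 0.381, 0.482, 0.554 and 0.974 FPKM in sham lungs 1 to 5. IncPBF lung 1 was thus 9.19 times the median of the other lungs, and sham lung 5 was the next highest. H2-Q6, a class I gene of the Q region, was at 28.9, 3.07, 4.18, 2.95 and 4.53 FPKM in IncPBF lungs 1 to 5 and 4.78, 2.29, 4.03, 4.42 and 12.8 FPKM in sham lungs 1 to 5. The same 2 lungs led, as they also did for its neighbour H2-Q7, at 8.82 FPKM in IncPBF lung 1 and 5.696 FPKM in sham lung 5. Tap1, a subunit of the peptide transporter, was at 19.1 FPKM in IncPBF lung 1 and at 5.62 to 8.31 FPKM in the others. Psmb9, an immunoproteasome subunit, was at 12.3 FPKM there and at 3.65 to 5.12 FPKM elsewhere. H2-Q6 and H2-Q7 share many 50-base windows with class I relatives (35.0% and 28.5%), so the division of fragments between these 2 genes is uncertain.

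Several interferon-responsive genes were high in IncPBF lung 1 as well. Irf1 was at 32.2 FPKM in IncPBF lung 1 and at 14.6 to 22.7 FPKM in the other lungs. Gbp2, a guanylate-binding protein gene, was at 33.2 FPKM in IncPBF lung 1, at 8.35 to 11.5 FPKM in the other IncPBF lungs and at 13.6 to 16.8 FPKM in the sham lungs. Ifng itself was near its detection limit, at 0.2397 FPKM (6 fragments) in IncPBF lung 1, no more than 0.0836 FPKM in IncPBF lungs 2 to 5 and 0 in all sham lungs. Ifit1 and Ifit3, which type I interferon induces, were at 3.97 and 11.7 FPKM in IncPBF lung 1, below every sham lung. The other IncPBF lungs were lower still, at 2.16 to 3.44 FPKM for Ifit1 and 5.55 to 9.11 FPKM for Ifit3. Of the 11 interferon-induced genes tested, 5 were highest of all lungs in IncPBF lung 1, beside 7.19% of all genes tested. These were Isg15, Oas1a, Oasl2, Usp18 and Bst2, from 1.31 times (Usp18) to 1.95 times (Oas1a) the median of the other lungs. The rest of the 11 ran from 0.731 times that median for Ifit1 to 1.35 times for Ifi44. Of the genes tested, IncPBF lung 1 was at least 1.5 times the median of the other lungs for 4.82%, for 4 of 13 genes of class I peptide supply and loading, for 3 of 14 nonclassical class I genes, for 5 of 9 of the interferon gamma pathway, for 3 of 11 interferon-induced genes and for 0 of 8 of class II peptide handling (ratios of FPKM + 0.1). Some markers of leukocytes were high in that lung too, and others were not. Of 8 markers of interstitial macrophages and monocytes it was the highest lung for 3, Cx3cr1 at 1.78 times the median of the other lungs, Ccr2 at 1.604 times and Ly6c2 at 1.54 times, and of 6 pan-leukocyte genes for 5, at 1.24 times for Cd52 to 1.39 times for Cd48. The other interstitial macrophage and monocyte markers ran from 0.899 times that median for C1qa to 1.12 times for C1qc. IncPBF lung 1 was the highest lung for none of the 6 T and NK cell markers tested and none of the 8 alveolar macrophage markers. It was the highest for 1 of 8 B cell markers and for 1 of 8 dendritic cell markers. Of the dendritic cell markers, Clec9a, Zbtb46 and Ccr7 were lowest of all lungs there. The part of these cells in the class I levels of that lung was not tested. The genes of these lists were looked at after the lung was seen to stand apart, and whether its sex-linked expression has a part in it was not tested.

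**Figure D3:**
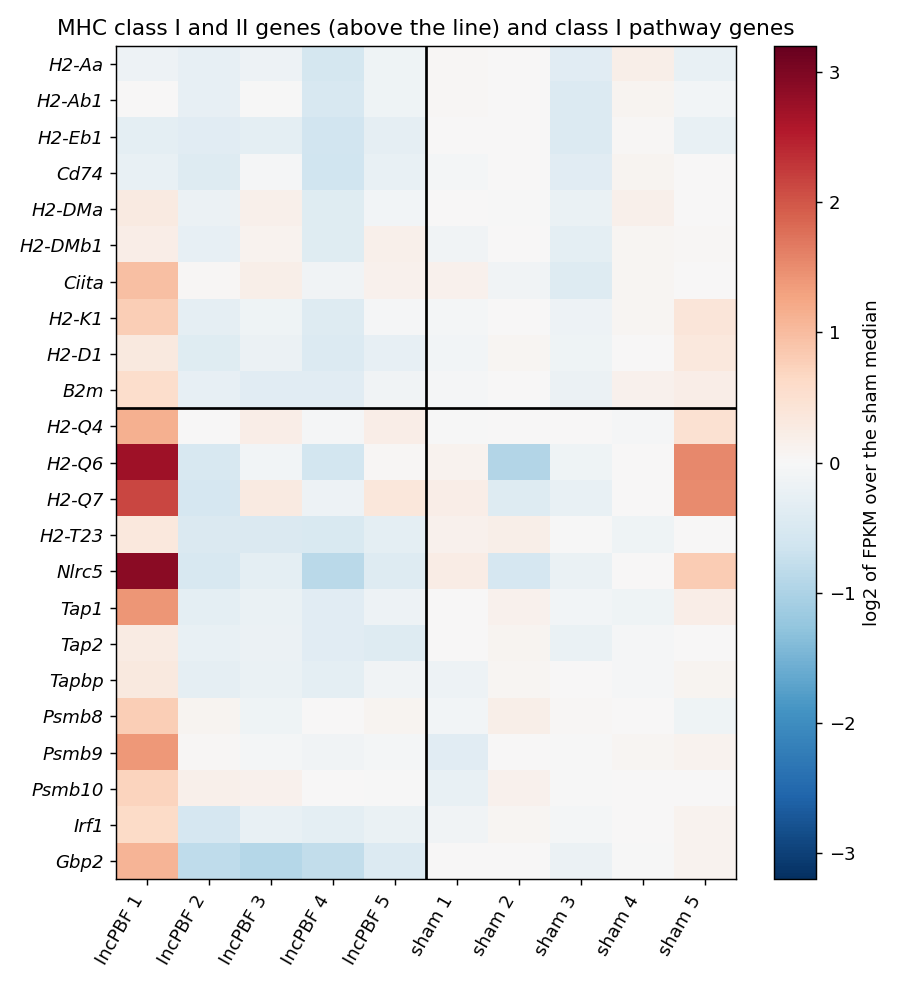
Log2 of FPKM over the median of the sham lungs (colour) for the 10 MHC class I and II genes above the horizontal line and 13 class I, transcription factor and interferon-responsive genes below it, in 5 IncPBF lungs (left) and 5 sham lungs (right). IncPBF lung 1 is high for class I genes and Ciita but not for H2-Aa, H2-Eb1 or Cd74, and sham lung 5 is high for H2-Q4, H2-Q6 and H2-Q7.

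Within each group the genes of a class varied together. For deviations from the group mean of log2(FPKM + 0.1) over the 10 lungs, Pearson's r between the 6 class II genes H2-Aa, H2-Ab1, H2-Eb1, Cd74, H2-DMa and H2-DMb1 ran from 0.68 to 0.97 with a median of 0.86. Between the 3 class I genes it ran from 0.89 to 0.97. Across the classes it was lower, from 0.26 to 0.77 with a median of 0.52. Ciita followed the class I genes more closely (0.84 to 0.90) than the class II genes (0.53 to 0.85). Without IncPBF lung 1, r between the 3 class I genes ran from 0.72 to 0.95, the median across the classes was 0.49, and Ciita had 0.58 to 0.68 with the class I genes and 0.68 to 0.85 with the class II genes. These values are descriptions, since all genes of a lung share its library.

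The genes most like the class II profile, by r over the 10 lungs with the mean of H2-Aa, H2-Ab1, H2-Eb1 and Cd74 among 15378 other genes, were Hvcn1 (r = 0.98), Lcp1 (r = 0.94), Thap2 (r = 0.93), Bst1 (r = 0.91), Klhl6 (r = 0.91), Slc45a4 (r = 0.90), Ctss (r = 0.90) and Pcdhb6 (r = 0.90). Spearman's rho was 0.41 for Pcdhb6 and 0.75 to 0.95 for the other 7 genes. Hvcn1 encodes a voltage-gated proton channel of leukocytes, Lcp1 the leukocyte actin-bundling protein L-plastin, and Ctss the protease cathepsin S, which trims the invariant chain. The genes most like the mean of H2-K1, H2-D1 and B2m were H2-Q4 (r = 0.97), Sp110 (r = 0.96), Nanos1 (r = 0.94), Itgal (r = 0.94), Nlrc5 (r = 0.94), Gbp5 (r = 0.94), Tap1 (r = 0.93) and Zbp1 (r = 0.93). H2-Q4 is a class I gene, Nlrc5 and Tap1 belong to the class I pathway, and Gbp5 and Zbp1 are interferon-responsive. Without IncPBF lung 1, r fell to 0.75 to 0.91 for these 8 genes, while that of the 8 genes of the class II profile stayed at 0.90 to 0.98.

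Ratios within a lung do not depend on how the lung was scaled. The ratio of Cd74 to H2-Ab1 was 4.02, 4.29, 4.702, 4.43 and 4.45 in IncPBF lungs 1 to 5 and 4.46, 4.81, 5.03, 4.79 and 5.09 in sham lungs 1 to 5. Of the 5 IncPBF lungs, 4 lay below all sham lungs, IncPBF lung 3 being the exception, and the mean log2 ratio differed by -0.14 (exact permutation p = 0.0159, adjusted over the 5 ratios 0.0794). H2-Aa to H2-Ab1 was lowest in IncPBF lung 1 and highest in sham lung 4, with a difference of -0.0812 (exact permutation p = 0.167, adjusted over the 5 ratios 0.278). H2-DMa to H2-Aa was highest in IncPBF lung 1 at 0.171, and the difference was 0.15 (exact permutation p = 0.167, adjusted over the 5 ratios 0.278). For the class I heavy chains per B2m, the differences were 0.0695 (exact permutation p = 0.333, adjusted over the 5 ratios 0.333) for H2-K1 and -0.0928 (exact permutation p = 0.3095, adjusted over the 5 ratios 0.333) for H2-D1. After adjustment none of the 5 passed 0.05.

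**Figure D4:**
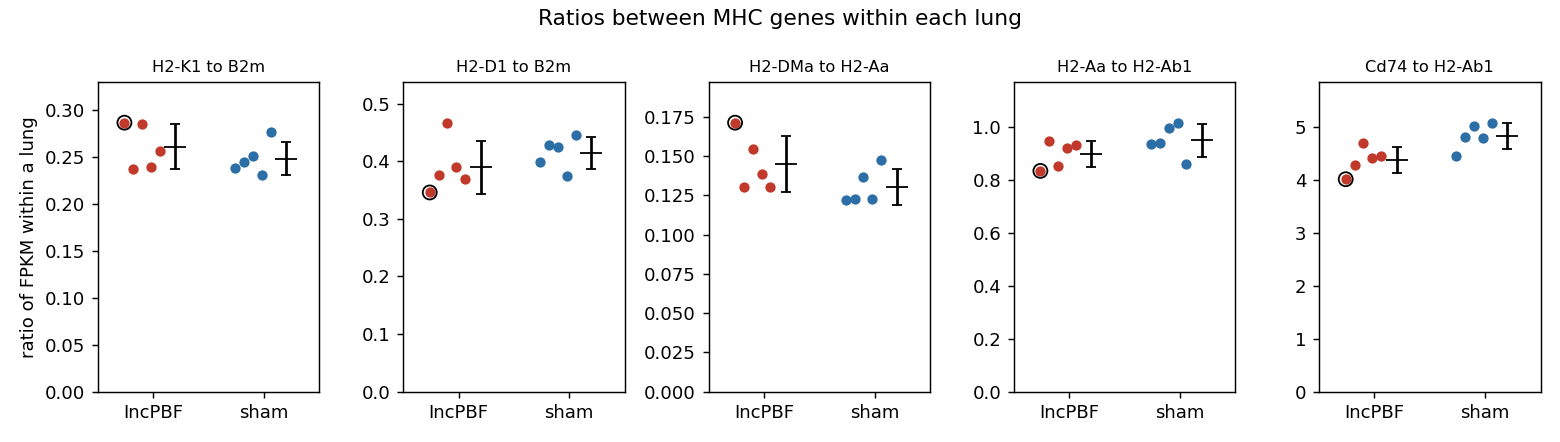
Ratios of FPKM within a lung (y axis, from 0) for 5 pairs of the 10 genes in the IncPBF lungs (red, lung 1 ringed) and the sham lungs (blue), with bars for the mean and SD of each group. Cd74 to H2-Ab1 runs from 4.02 to 4.702 in the IncPBF lungs and from 4.46 to 5.09 in the sham lungs.

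Around these 10 genes, lists of pathway genes and cell markers held 137 other genes that were tested, of which 41 (29.9%) passed the threshold, beside 32.3% of all genes. Of these, 9 were higher and 32 (23.4%) lower in the IncPBF group, where 16.2% of all genes were lower, with 13 higher and 27 lower when every lung was scaled to an equal total. With Xist added to the fit as a log2 covariate, 16 of the listed genes passed, 13 higher and 3 lower, and for the rest of these calls sex-linked expression and group cannot be told apart. Of the 8 genes of class II peptide handling tested, 3 fell and none rose, where 32.3% of all genes passed in either direction and 16.2% as lower. Ctsh, the protease cathepsin H, was at 52.7 ± 4.66 FPKM (SD, n = 5) in the IncPBF group and 82.03 ± 7.18 FPKM (SD, n = 5) in the sham group, a log2 fold change of -0.64 ± 0.0767 (SE, limma adjusted p = 1.59e-04). Ifi30, the lysosomal thiol reductase that opens disulfide bonds of antigens, was at 54.5 ± 6.51 FPKM (SD, n = 5) in the IncPBF group and 73.3 ± 5.86 FPKM (SD, n = 5) in the sham group, a log2 fold change of -0.43 ± 0.0871 (SE, limma adjusted p = 0.00349). March8, a ubiquitin ligase that lowers surface proteins, fell by less, with a log2 fold change of -0.25 ± 0.0631 (SE, limma adjusted p = 0.0109). Ctss, which cuts the invariant chain, stood at a log2 fold change of 0.22, adjusted p = 0.401 in the same fit by limma, and Lgmn, an asparagine endopeptidase, -0.0164, adjusted p = 0.884. The other class II genes of the locus that were tested, H2-DMb2, H2-Oa and H2-Ob, all had adjusted p of at least 0.147.

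Class I peptide supply and loading changed at 1 of 13 genes, where 32.3% of all genes passed in either direction. Erap1, the aminopeptidase that trims peptides in the endoplasmic reticulum, was at 9.21 ± 1.19 FPKM (SD, n = 5) in the IncPBF group and 11.8 ± 1.36 FPKM (SD, n = 5) in the sham group and fell, with a log2 fold change of -0.36 ± 0.102 (SE, limma adjusted p = 0.0206). Tap1, Tap2, Tapbp and Tapbpl did not pass with all lungs, at adjusted p of 0.905, 0.347, 0.469 and 0.0819 by limma. Without IncPBF lung 1 these 4 and Erap1 were lower, with log2 fold changes from -0.42 for Erap1 to -0.22 for Tapbp and adjusted p from 0.00925 to 0.0312. In that fit 13.9% of all genes were lower past the threshold. The chaperones Calr, Canx and Pdia3 had log2 fold changes from -0.0335 to 0.0381.

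Among 14 nonclassical class I genes tested, of 20 in the table, 3 rose and 2 fell, where 16.1% of all genes rose and 16.2% fell. H2-T24 fell by the most, from 8.78 ± 1.30 FPKM (SD, n = 5) in the sham group to 5.45 ± 2.61 FPKM (SD, n = 5) in the IncPBF group, a log2 fold change of -0.78 ± 0.247 (SE, limma adjusted p = 0.0327). Fcgrt, the heavy chain of the neonatal Fc receptor, which pairs with B2m, fell with no overlap of the groups, by a log2 fold change of -0.31 ± 0.0541 (SE, limma adjusted p = 0.00171). Cd1d1, which presents lipids to natural killer T cells, rose without overlap with a log2 fold change of 0.24 ± 0.0598 (SE, limma adjusted p = 0.0117). Mr1, which presents vitamin metabolites, rose with a log2 fold change of 0.32 ± 0.0993 (SE, limma adjusted p = 0.0306), and H2-Q2 at 0.40 ± 0.129 (SE, limma adjusted p = 0.0351). Neither passed without IncPBF lung 1, at adjusted p = 0.0571 for Mr1 and 0.0795 for H2-Q2 by limma, and the list then held 1 gene that rose and 4 that fell. How much sequence H2-T24 and H2-Q2 share with other class I genes was not counted, and their fragments may be split with relatives. H2-T23, the gene of Qa-1, stood at a log2 fold change of -0.31, adjusted p = 0.1201 by limma with all lungs and -0.46, adjusted p = 0.00159, without IncPBF lung 1.

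**Figure D5:**
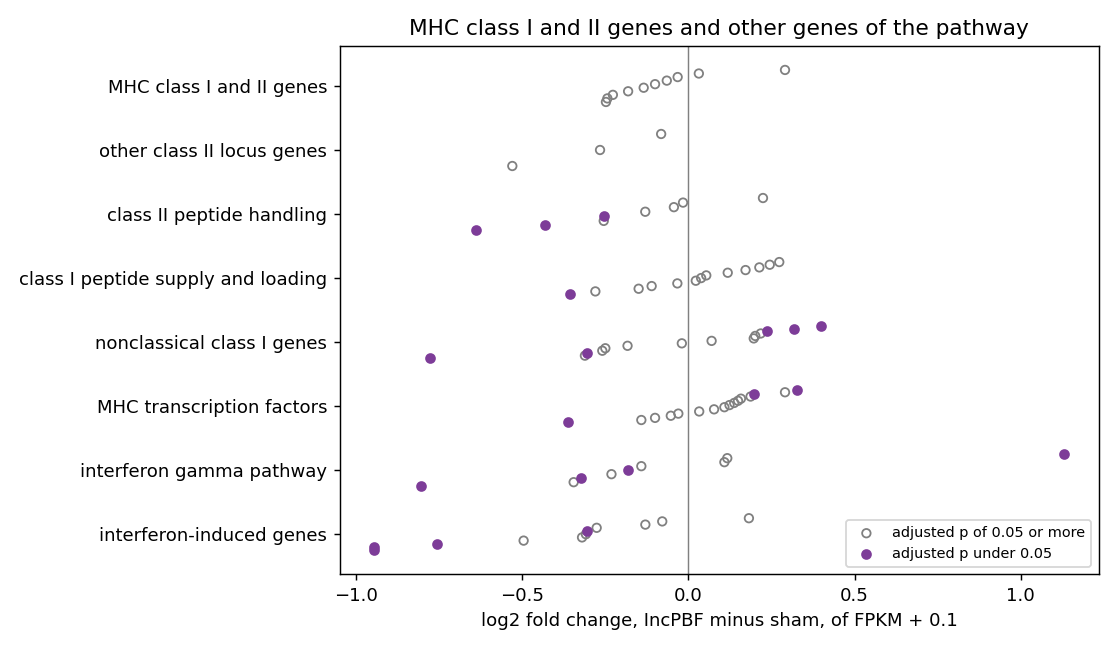
Log2 fold change of FPKM + 0.1, IncPBF minus sham (x axis), for the genes tested in each list (y axis), with filled points for an adjusted p under 0.05 and open points for the rest. The 10 MHC class I and II genes, in the top row, are all open, whereas each of the other lists drawn holds 1 to 4 filled points to the left of 0, except the other class II locus genes, which hold none.

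Of 16 transcription factors known at MHC promoters, Ciita and Nlrc5 included, 2 rose and 1 fell. Of all genes, 16.1% rose and 16.2% fell. Rfx5, which binds the X box, was at 3.73 ± 0.321 FPKM (SD, n = 5) in the IncPBF group and 2.96 ± 0.2595 FPKM (SD, n = 5) in the sham group and rose without overlap, with a log2 fold change of 0.33 ± 0.0837 (SE, limma adjusted p = 0.0124). Nfya, the subunit of NF-Y that contacts the Y box, rose with a log2 fold change of 0.20 ± 0.0511 (SE, limma adjusted p = 0.0131). Irf2, which binds interferon-stimulated elements, fell with a log2 fold change of -0.36 ± 0.0555 (SE, limma adjusted p = 7.42e-04). Nlrc5 stood at a log2 fold change of 0.14, adjusted p = 0.878 by limma with all lungs and -0.48, adjusted p = 0.221, without IncPBF lung 1.

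In the interferon gamma pathway 3 of 9 genes tested fell and 1 rose, where 16.2% of all genes fell and 16.1% rose. Ifngr1, the ligand-binding chain of the receptor, was at 50.8, 53.6, 50.04, 51.2 and 58.95 FPKM in IncPBF lungs 1 to 5 and 97.2, 99.4, 76.96, 89.4 and 101 FPKM in sham lungs 1 to 5. The groups did not overlap, and all IncPBF lungs, lung 1 included, were lower, with a log2 fold change of -0.80 ± 0.0801 (SE, limma adjusted p = 5.33e-05). The receptor kinases Jak1 and Jak2 fell too, at -0.32 ± 0.0837 (SE, limma adjusted p = 0.0129) and -0.18 ± 0.0619 (SE, limma adjusted p = 0.0444). Socs1, the feedback inhibitor of this pathway, rose from 1.65 ± 0.603 to 3.61 ± 0.812 FPKM (SD, n = 5 each), a log2 fold change of 1.13 ± 0.252 (SE, limma adjusted p = 0.00605). Without IncPBF lung 1, 6 of the 9 genes were lower, Gbp2, Gbp3 and Irf1 being added, where 13.9% of all genes were lower. Of 11 interferon-induced genes tested, 4 fell and none rose, where 16.2% of all genes fell with all lungs. The falls were led by Ifit3 at -0.95 ± 0.173 (SE, limma adjusted p = 0.00203), Ifit1 at -0.95 ± 0.1395 (SE, limma adjusted p = 5.85e-04) and Rsad2 at -0.76 ± 0.213 (SE, limma adjusted p = 0.0195). In the fit without IncPBF lung 1, 8 of the 11 were lower and none was higher, where 13.9% of all genes were lower.

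Markers of the cells that carry class II moved in part with the groups. Beside the counts below, 32.3% of all genes passed in either direction and 16.2% as lower. Of 8 dendritic cell markers tested, 2 fell. Clec9a, a receptor of cross-presenting dendritic cells, fell from 20.8 ± 1.64 to 11.3 ± 0.913 FPKM (SD, n = 5 each), a log2 fold change of -0.88 ± 0.0711 (SE, limma adjusted p = 1.74e-05). Zbtb46 fell with a log2 fold change of -0.38 ± 0.0627 (SE, limma adjusted p = 0.00115). The other 6 did not pass, with log2 fold changes from -0.51 for Cd209a to 0.38 for Batf3. Xcr1 and Flt3 were too low to be tested, Xcr1 at 0.528 ± 0.118 FPKM (SD, n = 5) in the IncPBF group and 0.465 ± 0.134 FPKM (SD, n = 5) in the sham group. The summed level of the 10 dendritic cell markers, most of it Cst3, was 330.1 to 366 FPKM in IncPBF lungs against 343 to 440.4 FPKM in the sham lungs. Of 8 B cell markers 1 fell, Cd22 at -0.43 ± 0.114 (SE, limma adjusted p = 0.0144), and their sum was 33.1 to 41.3 FPKM against 37.9 to 50.9 FPKM. Of 8 alveolar macrophage markers 2 fell, Fabp1 at -1.10 ± 0.227 (SE, limma adjusted p = 0.00395) and Krt79 at -0.91 ± 0.266 (SE, limma adjusted p = 0.0224). Both were low, Fabp1 at 9 to 47 fragments a lung and Krt79 at 41 to 144. The other 6 did not pass, with log2 fold changes from -0.56 for Siglecf to 0.57 for Chil3. The sum of the 8, led by Chil3, was 62.4 to 399 FPKM against 85.2 to 352 FPKM. In the list of interstitial macrophages and monocytes C1qb and C1qc fell, at -0.35 ± 0.108 (SE, limma adjusted p = 0.0289) and -0.38 ± 0.118 (SE, limma adjusted p = 0.0299), and Ccr2 rose with a log2 fold change of 0.65 ± 0.167 (SE, limma adjusted p = 0.0131), with sums of 75.6 to 103 FPKM and 85.9 to 119.6 FPKM. None of the 6 T and NK cell markers tested passed, and the 8 in the table summed to 8.59 to 9.61 FPKM (IncPBF) and 9.38 to 11.4 FPKM (sham).

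Alveolar type 2 cells, which carry class II in the lung, showed lower markers in the IncPBF group for 5 of 8 genes. Beside this and the counts below, 16.2% of all genes were lower and 16.1% higher. Sftpb fell from 1250.0 ± 49.02 to 804 ± 71.2 FPKM (SD, n = 5 each), a log2 fold change of -0.64 ± 0.0844 (SE, limma adjusted p = 2.84e-04), Sftpa1 at -0.73 ± 0.147 (SE, limma adjusted p = 0.00340) and Abca3, the lipid transporter of lamellar bodies, at -0.56 ± 0.144 (SE, limma adjusted p = 0.0127). The 8 markers, of which Sftpc was the most abundant, summed to 11170.0 to 13811 FPKM (IncPBF) and 13639 to 16866 FPKM (sham). Of 6 endothelial markers, with sums of 909.8 to 964 FPKM (IncPBF) and 941 to 1219 FPKM (sham), 3 fell, Pecam1, Cdh5 and Tek, with log2 fold changes of -0.37 to -0.47. Ptprc, the gene of the leukocyte antigen CD45, was at 3.42 ± 0.505 FPKM (SD, n = 5) in the IncPBF group and 3.32 ± 0.468 FPKM (SD, n = 5) in the sham group (log2 fold change 0.0372, adjusted p = 0.833, limma), and of the 6 pan-leukocyte genes, with sums of 74.5 to 102 FPKM (IncPBF) and 72.5 to 89.4 FPKM (sham), Cd52 rose with a log2 fold change of 0.32 ± 0.108 (SE, limma adjusted p = 0.0421). Without IncPBF lung 1, its highest lung, Cd52 had an adjusted p of 0.0952 by limma and no pan-leukocyte gene passed. Costimulation and antigen uptake genes fell at Clec9a, Cd86 and Fcgr2b of 8 tested, the latter pair at -0.45 ± 0.155 (SE, limma adjusted p = 0.04595) and -0.38 ± 0.125 (SE, limma adjusted p = 0.0381), while Cd40 rose with a log2 fold change of 0.38 ± 0.0761 (SE, limma adjusted p = 0.00346). Fcgr2b did not pass without IncPBF lung 1, at adjusted p = 0.0839 by limma. The part of these cell types in the levels of the MHC class I and II genes was not tested.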

How the data were processed

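Bulk RNA-sequencing covered P14 lungs of 5 IncPBF and 5 sham mice. The authors deposited 1 table of FPKM per gene and lung with the gene length. RNA was taken up in Trizol (labels) or on a column (methods), and NEBNext libraries were sequenced on a NovaSeq instrument. The submitters' processing notes name Bowtie 0.12.2 and the builds GRCm38, mm10 and hg38 without a role, and the counting software is not given in the sources used here. The table names the IncPBF columns by another abbreviation than the sample titles. They were assigned to the group, since the other 5 columns are named sham.

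Multiplied by gene length, 100% of the FPKM values were whole multiples of one lung-specific step (tolerance 0.05), and so gave the fragments on each gene. The 15388 genes whose FPKM averaged 0.5 or more entered a limma 3.58.1 fit (R 4.3.3) of log2(FPKM + 0.1) on the group, with eBayes moderation along a mean trend and no covariates, and p-values were Benjamini-Hochberg adjusted over all of them. Single values and ratios were compared by exact two-sided permutation over the 252 assignments of lungs, where the smallest possible p is 0.00794. Fold changes on the log2(FPKM + 0.1) scale understate changes of low genes. Lists are described by counts and medians only. The 10 genes and the lists were chosen with earlier results of these data known. Named from each list were up to 3 of the largest rises and falls past the threshold. Defining cell markers were also named. All further genes, among them Nlrc5, Tap1, Psmb9, H2-Q4, H2-Q6, H2-Q7, H2-T23, Irf1, Gbp2 and the genes of the closing section, were named after their values were seen. Shared 50-base windows were counted on GENCODE M21 transcripts, and promoters came from RefSeq on GRCm38.p6.

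Alternatives were the pseudocount (1 or 0.01), the filter (a mean of at least 1, or none), the scaling (equal total, median centring, quantile), the lung number as a replicate block, no trend in eBayes, limma-voom on the recovered fragments, exact permutation of unlogged FPKM, log2 Xist FPKM as a covariate, and each lung left out. The fit was tested on simulated data.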

Additional observations from a re-analysis of the deposited data

Results flagged for a closer look

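The MHC genes, the ratios, the genes named by rule and some genes named after their values were seen gave 136 groups of 5 lungs. Each group was looked at for a lung whose gap to its nearest neighbour was over 0.71 of the group's range (Dixon). Chance alone meets this in about 1 of 20 groups. Since some genes were picked for such values, that share is no measure for the count here. There were 25 such lungs and genes, 17 of them in IncPBF lung 1.

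Among the class II genes, IncPBF lung 4 was set apart as the lowest of its group for H2-Aa at 65.96 FPKM and for H2-Eb1 at 72.8 FPKM. IncPBF lung 1 was set apart as the highest of its group for Ciita at 2.83 FPKM, H2-K1 at 173 FPKM, H2-D1 at 208 FPKM and B2m at 602 FPKM.

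The same lung was set apart for class I relatives, with H2-Q4 at 47.7 FPKM, H2-Q6 at 28.9 FPKM, H2-Q7 at 8.82 FPKM and H2-T23 at 32.3 FPKM. It was set apart for peptide supply, with Tap1 at 19.1 FPKM, Tap2 at 13.1 FPKM, Tapbp at 75.4 FPKM, Psmb8 at 15.7 FPKM, Psmb9 at 12.3 FPKM and Psmb10 at 39.1 FPKM. Among regulators and interferon-responsive genes it was set apart for Nlrc5 at 4.099 FPKM, Irf1 at 32.2 FPKM and Gbp2 at 33.2 FPKM. Most of these genes were chosen after this lung had been seen to stand apart.

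In the sham group, lung 5 was set apart as the highest for H2-Q4 at 30.2 FPKM, H2-Q6 at 12.8 FPKM and H2-Q7 at 5.696 FPKM. Sham lung 2 was the lowest for Rfx5 at 2.51 FPKM. IncPBF lung 3 was the highest of its group for Cd22 at 1.92 FPKM and the lowest for Fabp1 at 0.881 FPKM.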

How the results depend on the processing

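The count of the 10 genes past the threshold was 0 under the 11 alternatives of pseudocount, filter, scaling, block, trend, voom and permutation, 2 with the Xist covariate (both higher), 1 without IncPBF lung 1 and sham lung 5 (chosen after the data were seen), and 0 to 2 with single lungs left out. It was 2 without IncPBF lung 1 (H2-D1 and B2m) and 2 without sham lung 3 (H2-Eb1 and Cd74). Of all genes, 27.9% passed without IncPBF lung 1 and 34% without sham lung 3. The share of all genes was 22.6% without both IncPBF lung 1 and sham lung 5. It was 23.2% by exact permutation and 25.1% to 34% with single lungs left out. The count of the other listed genes, 41, was 25 by exact permutation, 16 with the Xist covariate, and 31 to 50 with single lungs left out, beside the shares of all genes just given. Of the genes named from the lists, Erap1, H2-T24, H2-Q2, Mr1, Jak2, Cd86, Fcgr2b, Krt79, C1qb, C1qc and Cd52 each fell short of the threshold without one or another single lung. Same-numbered lungs showed little shared deviation (r of -0.067 to 0.085), so the number was not taken as a pairing. This check cannot show whether such lungs shared a litter or a batch. The replicate block gave 0 of the 10 genes and 37 of the listed genes.

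The Xist covariate turned the sign of H2-Ab1 (0.11), H2-DMa (0.30), H2-K1 (0.74), H2-D1 (0.28), B2m (0.53), H2-T24 (0.14), Tap2 (0.30), Tapbp (0.32), Tapbpl (0.0811), H2-T23 (0.29), Irf1 (0.59) and Gbp2 (1.09). An equal total per lung turned H2-DMa (0.0466) and H2-K1 (0.0145), and quantile normalization Nlrc5 (-0.0195). Without IncPBF lung 1 and sham lung 5, H2-DMb1 (-0.00517), Nlrc5 (-0.32), Tap1 (-0.23), Psmb8 (-0.0142) and H2-Q6 (-0.0464) turned. Leaving out single lungs spanned 0 for H2-DMa (-0.12 to 0.0556), H2-DMb1 (-0.0316 to 0.12), H2-K1 (-0.27 to 0.0296), Nlrc5 (-0.48 to 0.36), Tap1 (-0.28 to 0.16), Psmb9 (-0.00919 to 0.36), H2-Q6 (-0.40 to 0.55) and H2-Q7 (-0.22 to 0.51). The cause was not tested. Of the 230 values of the 10 genes under alternatives, 206 kept direction and side of the threshold.

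With 5 lungs a group, the 95% intervals of the 10 genes reached from -0.53 for H2-D1 to 0.69 for Ciita on the log2 scale. The lowest count was 197 fragments, for Ciita. Bulk RNA cannot place a gene in a cell type. IncPBF lung 1 differs from the other IncPBF lungs in sex-linked and in interferon-responsive expression at once, and these cannot be told apart in 1 lung.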

Other observations

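IncPBF lung 1 also led the other 9 lungs in genes outside the lists. Among genes with a mean of at least 0.5 FPKM in the other lungs, those with the largest ratio to the highest other lung were Tgtp2 at 12.6 FPKM (5.11 times), Igtp at 29.9 FPKM (4.67 times), Gm12250 at 3.69 FPKM (4.55 times) and Nlrc5 at 4.099 FPKM (4.21 times). Tgtp2 and Igtp encode immunity-related GTPases that interferon gamma induces. Zbp1, Gbp4, Irgm1, Gbp5, Irgm2, Psmb9, Tap1 and H2-Q6 were among the first 15 of that order too. The lung was at least 1.5 times as high as every other lung for 63 of the 15388 genes tested (0.409%).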
